A study of Mus musculus with 93 samples.

Results

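Livers of PPARα -/- mice that had received the C18:1 triglyceride were compared with livers of PPARα -/- mice that had received the control vehicle, on 1 Affymetrix whole-genome mouse array per mouse. The members are 10 of the 93 arrays of the series, chosen by their titles: 5 PPARα -/- C18:1 arrays and 5 PPARα -/- control arrays of the first run. All 11412 probesets that are not array controls entered the tests. They stand for 6661 genes with a symbol of their own. The C18:1 triglyceride is triolein, in which every fatty acid is oleic acid, a monounsaturated fatty acid and the main one of olive oil.

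All mice were male. They ate a diet with olive oil in place of corn oil, were fasted for 4 h and then received 400 µl by gavage, and liver was taken 6 h later. The C18:1 mice received the oil itself, and the control mice received a watery carboxymethyl cellulose suspension, so the groups differ in fat and calories as well as in oleic acid. Other groups used here received the C20:5 triglyceride (eicosapentaenoic acid), the C22:6 triglyceride (docosahexaenoic acid), fenofibrate or WY14643, the last 2 being synthetic PPARα ligands given in the vehicle. C18:1, C20:5, C22:6 and fenofibrate mice were labelled as 8 to 24 weeks old, and WY14643 and control mice as 12 to 20 weeks old. C18:1 and control mice thus differed in labelled age range as well, which cannot be told apart from the bolus. PPARα -/- mice were labelled 129S4/SvJae and WT mice 129S1/SvImJ, so the missing receptor and the substrain cannot be told apart. The null allele is missing in every cell of the mouse, not in liver alone. Each array is a mouse of its own, and no label ties mice that share a replicate number.

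PPARα is a nuclear receptor that binds fatty acids and switches on genes of fatty acid uptake, oxidation and ketone production in hepatocytes, above all in fasting. SREBP-1, encoded by Srebf1, is a membrane-bound transcription factor that drives the enzymes of fatty acid synthesis after feeding and with insulin. Polyunsaturated fatty acids are known to lower both the mRNA and the processing of SREBP-1. In mice without PPARα, changes after a fat bolus cannot pass through that receptor.

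Levels are given as the log2 of the deposited signal, and changes as the difference of group means on that scale, with the standard error (SE) of the fit. A difference of 1 is a factor of 2. Signals compare mice for one probeset, not one gene with another. Array medians lay between 139 and 144 in C18:1 livers and between 139 and 143 in control livers (linear signal), and pairs of arrays of one group correlated at 0.970 to 0.985 for C18:1 and 0.954 to 0.986 for control. Of 3 Ppara probesets, 1 separated the genotypes, at 5.94 to 7.93 in all 48 PPARα -/- arrays and 8.10 to 9.52 in all 45 WT arrays. The other 2 overlapped, and what part of the transcript they read is not given in the sources used here. Signals with a group mean under 4.42, the lowest 5% over the 10 arrays, are called dim. Where 1 group is dim the fold is given as a bound against that limit.

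C18:1 changed 97 of 11412 probesets (0.85%) at an adjusted p under 0.05 in limma's test, 64 of them higher and 33 lower. Counted as genes, 46 were higher (0.691% of 6661) and 22 were lower (0.33%). The changes of the 46 ran from 0.31 to 2.35 with a median of 0.69, and those of the 22 from -2.07 to -0.32 with a median of -0.74. At an unadjusted p under 0.01, 636 probesets passed (5.57%), and 235 genes were higher (3.53%) and 172 lower (2.58%). The median over all genes was 0.0028, and 90% of them lay between -0.40 and 0.50. Leaving out 1 mouse at a time moved the count of 97 probesets between 27 and 299. It was 27 without control 5 or C18:1 3, 41 without control 2, 43 without C18:1 4, 50 without control 1, 54 without control 4 or C18:1 1, 63 without C18:1 5 and 299 without control 3. In all 10 such fits 12 of the 68 genes kept an adjusted p under 0.05. They were Acadl, Acot1, Cgref1, Eci2, Inhbc, Pxmp4, Slc25a20 and Trir among the higher and Aspg, Shpk, Slc12a7 and Srebf1 among the lower. These fits still took the spread from the arrays of all groups. With only the 10 arrays in the fit, Acadl, Acot1, Cgref1, Eci2, Pxmp4, Slc25a20, Aspg and Slc12a7 lost the call. Inhbc and Srebf1 kept it.

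Several mRNAs of fatty acid synthesis were lower after C18:1. Srebf1 fell 4.19-fold, the largest of all falls that passed the test. Acss2, which makes acetyl-CoA from acetate, fell 3.09-fold. Mid1ip1, which helps acetyl-CoA carboxylase to polymerize, fell 2.79-fold. Acaca, the carboxylase that commits acetyl-CoA to fatty acids, fell 2.01-fold. Of 19 measured SREBP-1 and fatty acid synthesis genes, 4 fell and 0 rose at an adjusted p under 0.05 (0.33% of all genes fell). At an unadjusted p under 0.01, 7 were lower and 0 higher (2.58% of all genes were lower). Of the 19, 17 were below zero, with a median of -0.90 beside 0.0028 over all genes. A lower median of this list was not particular to C18:1. With the same controls, it was -1.03 after the docosahexaenoic acid triglyceride and -0.76 after WY14643 in PPARα -/- liver. It was -0.43 after fenofibrate and -0.12 after the eicosapentaenoic acid triglyceride.

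The region around each start site is printed for the 4 fallen genes of this list, because SREBP-1 binds promoters beside NF-Y. The sequences are from RefSeq (GRCm38.p6) and run 5′ to 3′ on the gene's own strand, from 250 bases before to 50 after the start. Both strands were searched for TCACNCCAC, a sterol regulatory element held by 1.24% of 32851 such mouse promoters, and for CCAAT, the NF-Y box, held by 37.4%. Capitals mark a match, and ATTGG is CCAAT on the other strand.
Srebf1, chr11:60222532-60222831, minus strand: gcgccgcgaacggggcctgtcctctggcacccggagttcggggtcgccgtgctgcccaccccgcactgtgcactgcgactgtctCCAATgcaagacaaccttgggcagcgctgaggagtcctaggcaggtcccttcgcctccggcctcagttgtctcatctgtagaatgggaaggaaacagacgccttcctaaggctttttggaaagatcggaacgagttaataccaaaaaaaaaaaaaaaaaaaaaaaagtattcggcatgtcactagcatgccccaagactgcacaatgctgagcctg
Acss2, chr2:155517793-155518092, plus strand: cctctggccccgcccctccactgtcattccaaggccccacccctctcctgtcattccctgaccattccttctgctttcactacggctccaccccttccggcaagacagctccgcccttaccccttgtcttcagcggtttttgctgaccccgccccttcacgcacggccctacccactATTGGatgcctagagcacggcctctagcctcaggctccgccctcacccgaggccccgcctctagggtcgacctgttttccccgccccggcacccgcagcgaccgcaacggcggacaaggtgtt
Mid1ip1, chrX:10717115-10717414, plus strand: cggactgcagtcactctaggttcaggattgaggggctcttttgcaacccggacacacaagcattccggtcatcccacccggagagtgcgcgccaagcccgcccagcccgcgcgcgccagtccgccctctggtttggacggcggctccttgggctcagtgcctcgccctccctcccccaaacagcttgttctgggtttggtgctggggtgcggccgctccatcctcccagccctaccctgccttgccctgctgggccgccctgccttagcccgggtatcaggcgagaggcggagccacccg
Acaca, chr11:84195188-84195487, plus strand: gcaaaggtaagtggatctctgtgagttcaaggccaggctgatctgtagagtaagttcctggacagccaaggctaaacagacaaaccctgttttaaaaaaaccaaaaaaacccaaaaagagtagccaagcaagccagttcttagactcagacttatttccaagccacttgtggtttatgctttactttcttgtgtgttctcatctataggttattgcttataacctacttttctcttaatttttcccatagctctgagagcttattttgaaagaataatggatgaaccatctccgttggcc
CCAAT occurs at -166 to -162 of Srebf1 and, on the other strand, at -73 to -69 of Acss2. Neither motif occurs in the other 2 windows, and TCACNCCAC occurs in none of the 4. Start sites that are not listed were not searched, so this holds for the printed windows alone. For Srebf1 this is the first of 3 listed start sites. The second window holds neither motif and the third holds CCAAT on the other strand at -30 to -26, and which start the probeset reports is not given in the sources used here.

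Srebf1 read 6.66, 6.65, 6.02, 5.52 and 5.08 in C18:1 livers 1 to 5, against 8.18, 8.42, 7.16, 8.15 and 8.37 in control livers 1 to 5. Every C18:1 liver lay below every control liver, and control 3 was the lowest of the controls. The means were 5.99 ± 0.70 for C18:1 and 8.06 ± 0.51 for control (SD, n = 5 each), a change of -2.07 ± 0.37 (SE; limma adjusted p = 0.00103). Acss2 read 8.64, 8.94, 8.76, 8.74 and 8.75 in C18:1 livers, against 10.26, 10.88, 9.07, 10.37 and 11.38 in control livers. C18:1 livers were nearly level, the control livers spread widely, and control 3 again lay nearest to the C18:1 mice (-1.63 ± 0.39, adjusted p = 0.0239).

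Mid1ip1 read 4.90, 5.13, 4.49, 4.95 and 4.75 in C18:1 livers, against 6.46, 6.49, 5.25, 6.34 and 7.10 in control livers (-1.48 ± 0.38, adjusted p = 0.0366). Acaca read 6.91, 6.62, 6.50, 6.29 and 6.43 in C18:1 livers, against 7.34, 7.57, 6.91, 7.36 and 8.59 in control livers (-1.0 ± 0.27, adjusted p = 0.0462). Mid1ip1 did not overlap between the groups, C18:1 1 and control 3 nearly touched for Acaca, and in both genes control 3 was the lowest and control 5 the highest control. Other members of the list had values of the same sign that missed the adjusted threshold: Pklr, liver pyruvate kinase, at -1.52 (adjusted p = 0.0515), Fasn, fatty acid synthase, at -1.11 (0.0912), and Acly, ATP citrate lyase, at -0.92 (0.105). These 3 were chosen after their values were seen. Scd1, the desaturase that makes oleic acid, was at -0.19, and Mlxipl, which encodes the glucose-sensing factor ChREBP, at -0.12.

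The mean of the 19 genes, set against the mean of the 5 controls, was -0.89 to -0.66 in C18:1 livers and -0.80 to 0.71 in control livers. Control 3 held the -0.80 and control 5 the 0.71, so control 3 lay within the range of the C18:1 mice and the rest of the controls did not. Leaving out control 3 gave 7 falls in the list in place of 4. Leaving out any other mouse gave 1 to 3, and it was 1 without control 2, control 5, C18:1 1, C18:1 3 or C18:1 4, and 2 without control 1, control 4 or C18:1 5, while the median of the list stayed between -1.04 and -0.61. Srebf1 stayed past the threshold in every one of these fits. With only the 10 arrays its adjusted p was 0.045, and with the replicate number as a block as well it was 0.0531. Acaca stayed past it only without control 3, and its highest adjusted p was 0.193.

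Cholesterol synthesis genes, which a related factor, SREBP-2, drives, were below zero in 18 of 18 measured genes, with a median of -0.40. None passed an adjusted p under 0.05 in limma's test, and 2 passed an unadjusted p under 0.01, Dhcr7 at -0.97 and Mvk at -0.70. A lower median of this list was not particular to C18:1. With the same controls, it was -0.76 after WY14643 and -0.71 after the docosahexaenoic acid triglyceride in PPARα -/- liver. It was -0.55 after the eicosapentaenoic acid triglyceride and -0.21 after fenofibrate. After C18:1, Idh1, the cytosolic isocitrate dehydrogenase that supplies NADPH, fell by 0.46 (adjusted p = 0.00904). Acsl5, which activates long-chain fatty acids, fell by 0.69 (adjusted p = 0.0337).

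**Figure D1:**
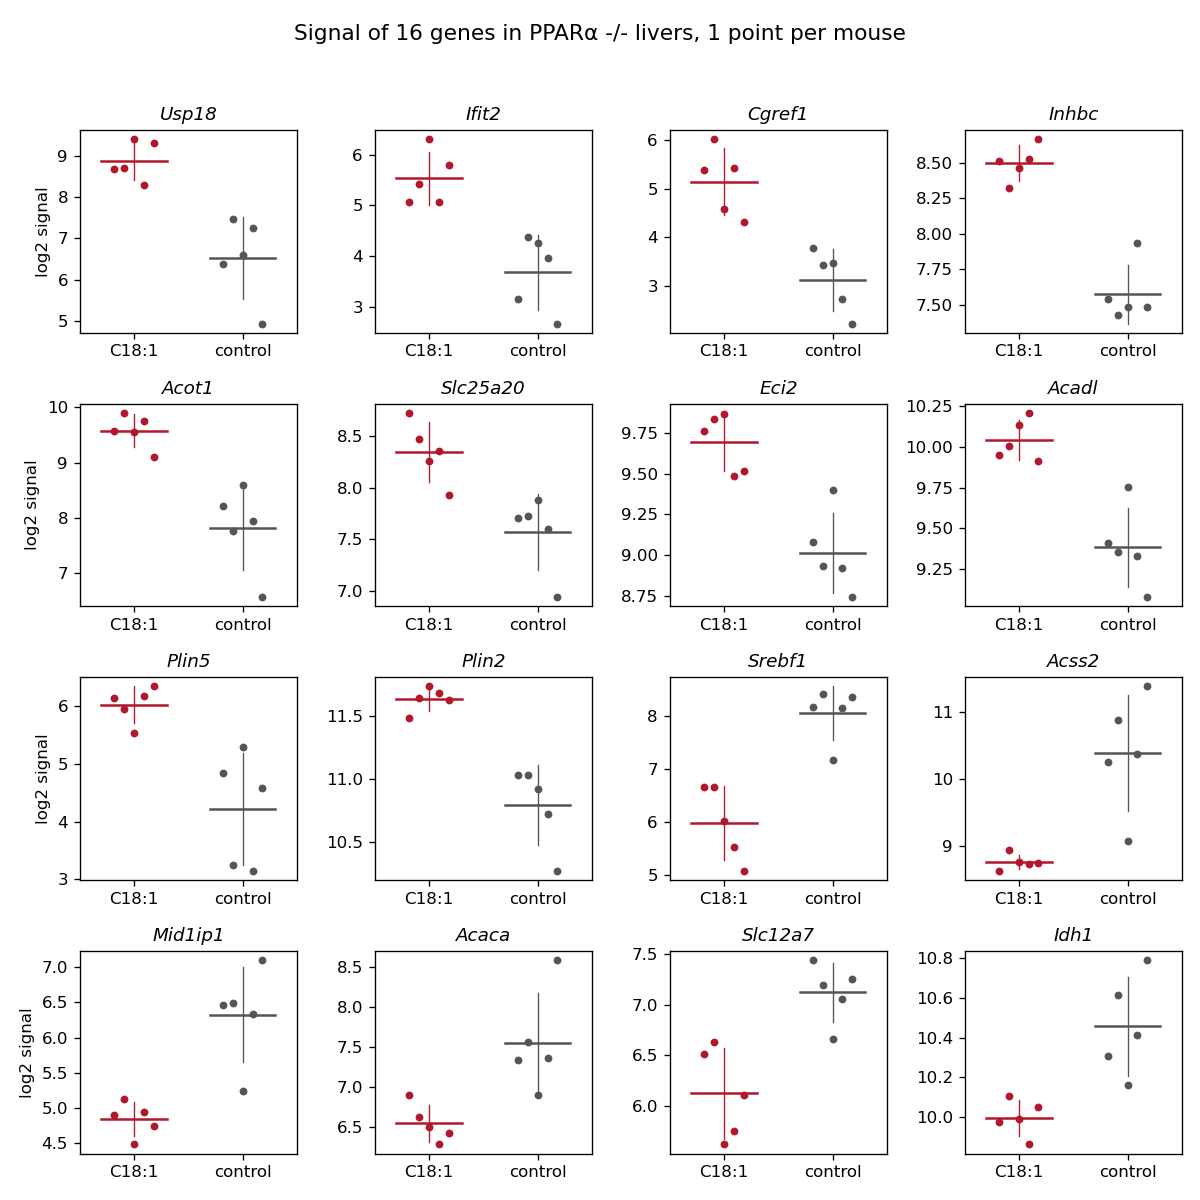
Log2 signal of 16 genes in each mouse, with 5 PPARα -/- C18:1 livers at the left and 5 PPARα -/- control livers at the right of each panel; points are mice, the bar is the mean and the line 1 SD. Srebf1 lies at 5.08 to 6.66 in C18:1 livers and 7.16 to 8.42 in control livers, and Usp18 at 8.30 to 9.40 in C18:1 livers and 4.94 to 7.47 in control livers.

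Interferon-induced genes were higher after C18:1. Usp18, a protease that removes the ubiquitin-like ISG15 and dampens interferon receptor signalling, rose 5.10-fold, the largest of all rises that passed the test. Ifit2, an antiviral RNA-binding protein, Oasl2, a relative of the enzymes that make oligoadenylates on viral RNA, and Oas1a, one of those enzymes, rose with it. Of 31 measured genes of this list, 4 rose and 0 fell at an adjusted p under 0.05 (0.691% of all genes rose and 0.33% fell). At an unadjusted p under 0.01, 17 were higher and 0 lower (3.53% and 2.58% of all genes). The groups did not overlap in the higher direction for 14 of them, beside 2.16% of all genes. The list median was 0.86, and 30 of the 31 were above zero, Psmb9 at -0.07 being the exception. A higher median of this list was not particular to C18:1. With the same controls, it was 0.72 after fenofibrate and 0.41 after WY14643 in PPARα -/- liver. It was 0.26 after the eicosapentaenoic acid triglyceride and 0.16 after the docosahexaenoic acid triglyceride.

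Usp18 read 8.68, 8.71, 9.40, 8.30 and 9.30 in C18:1 livers, against 6.39, 7.47, 6.58, 7.26 and 4.94 in control livers. The groups did not overlap, and control 5 was the lowest of the controls (2.35 ± 0.53, limma adjusted p = 0.0133). Ifit2 read 5.06, 5.43, 6.30, 5.07 and 5.79 in C18:1 livers, against 3.15, 4.38, 4.26, 3.96 and 2.67 in control livers. It was dim in control livers and at least 2.16-fold higher in C18:1 livers (1.85 ± 0.40, adjusted p = 0.00904).

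Oasl2 read 4.47, 5.39, 5.77, 5.25 and 5.50 in C18:1 livers, against 2.50, 3.48, 4.55, 3.84 and 3.12 in control livers. Control 3 lay above C18:1 1, so the groups overlapped, and with dim controls the rise was at least 1.78-fold (1.78 ± 0.39, adjusted p = 0.011). Oas1a read 6.26, 6.20, 6.84, 6.68 and 7.03 in C18:1 livers, against 3.62, 5.74, 6.65, 4.57 and 5.00 in control livers (1.49 ± 0.39, adjusted p = 0.0452). Control 3 alone reached the range of the C18:1 livers, and the other controls lay below it. Outside the list, Cmpk2, a mitochondrial nucleotide kinase also known as interferon-induced, read 5.56, 6.14, 5.97, 5.08 and 6.79 in C18:1 livers, against 4.02, 4.62, 3.73, 4.21 and 3.21 in control livers, at least 2.73-fold higher (adjusted p = 0.0406).

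The Oas1a start region is shown because it holds the interferon-stimulated response element in its short form (GAAA, any 2 bases, GAAA), which 3.44% of the 32851 promoters hold on either strand. It was chosen for printing after its values were seen and is the exception among the called interferon genes searched, since the 2 listed windows of Ifit2 and the window of Oasl2 hold no match. In capitals are 2 matches that overlap, at -20 to -11 and -14 to -5 from the start.
Oas1a, chr5:120907476-120907775, minus strand: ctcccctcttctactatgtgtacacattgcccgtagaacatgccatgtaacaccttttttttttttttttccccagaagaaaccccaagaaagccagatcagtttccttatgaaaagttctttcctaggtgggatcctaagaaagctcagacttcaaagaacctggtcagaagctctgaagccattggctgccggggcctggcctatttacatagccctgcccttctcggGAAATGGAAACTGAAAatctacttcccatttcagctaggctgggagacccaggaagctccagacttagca

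The calls of single interferon genes turned on a few mice. Without control 5 or without C18:1 3, 0 of the 31 genes passed an adjusted p under 0.05, without control 1 2 did, and otherwise 3 to 6, while the list median stayed between 0.76 and 0.98. The highest adjusted p in these 10 fits was 0.0957 for Usp18, 0.0614 for Ifit2, 0.0698 for Oasl2, 0.181 for Oas1a and 0.126 for Cmpk2. Probesets of Oas and Ifit genes can also read near-identical family members, and that was not tested. Markers of Kupffer cells and macrophages were higher in the same direction: 20 of 21 were above zero, as were 3369 of all 6661 genes. Their median was 0.69, 0 passed an adjusted p under 0.05, and 0 were free of overlap. At an unadjusted p under 0.01, 5 were higher (3.53% of all genes were higher). Such a rise was not particular to C18:1. With the same controls, the marker median was 1.12 after C22:6, 0.54 after fenofibrate, 0.54 after WY14643 and 0.28 after C20:5 in PPARα -/- liver. The summed linear signal of these markers was 4248 to 6806 in C18:1 livers and 1058 to 6377 in control livers. Their mean, set against the controls, was 0.35 to 1.06 in C18:1 livers and -1.71 to 0.91 in control livers. Control 1 held the -1.71, and the other controls overlapped the C18:1 mice. The part of these cells in the interferon genes was not tested, and in whole liver more cells of a type and more RNA per cell cannot be told apart. Summed hepatocyte markers were 77691 to 82224 in C18:1 livers and 76086 to 78760 in control livers.

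Fatty acid oxidation genes rose in a few steps. Slc25a20, which carries acylcarnitines into mitochondria, rose 1.71-fold, Eci2, an isomerase needed to oxidize unsaturated fatty acids such as oleic acid, 1.60-fold, and Acadl, the long-chain acyl-CoA dehydrogenase, 1.58-fold. Cpt1a, which forms acylcarnitines at the outer membrane and is the rate-setting step, rose by 0.55 ± 0.13 (adjusted p = 0.0225), and Slc22a5, the carnitine importer of the cell membrane, by 1.01 ± 0.26 (adjusted p = 0.0367). Of 21 genes of mitochondrial fatty acid oxidation, 5 rose and 0 fell at an adjusted p under 0.05 (0.691% of all genes rose and 0.33% fell), and the list median was 0.13 beside 0.0028 over all genes. At an unadjusted p under 0.01, 7 were higher (3.53% of all genes were higher). The 2 further ones were Crat, carnitine acetyltransferase, at 0.83 (adjusted p = 0.109) and Etfb, an electron transfer flavoprotein subunit, at 0.18 (adjusted p = 0.122). Eci1, a mitochondrial relative of Eci2, was at 0.23 without overlap (adjusted p = 0.31). Acadm was at -0.07, Acadvl at 0.10, Hadha at 0.04 and Cpt2 at 0.13, and none of these passed either. Nor was a list median above zero particular to triolein. Against the same controls in PPARα -/- liver, this median was 0.18 after fenofibrate and 0.06 after WY14643. It was 0.04 after the eicosapentaenoic acid triglyceride and 0.02 after the docosahexaenoic acid triglyceride.

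Slc25a20 read 8.73, 8.47, 8.26, 8.35 and 7.93 in C18:1 livers, against 7.70, 7.73, 7.88, 7.60 and 6.94 in control livers (0.78 ± 0.13, limma adjusted p = 0.000295). Eci2 read 9.76, 9.84, 9.86, 9.49 and 9.52 in C18:1 livers, against 9.08, 8.93, 9.40, 8.92 and 8.74 in control livers (0.68 ± 0.11, adjusted p = 0.000295). Acadl read 9.95, 10.01, 10.13, 10.21 and 9.91 in C18:1 livers, against 9.41, 9.35, 9.75, 9.33 and 9.07 in control livers (0.66 ± 0.13, adjusted p = 0.00278). In all 3 genes the lowest C18:1 liver was above the highest control, and all 3 kept the call whichever mouse was left out. With only the 10 arrays in the fit none of the 3 did, at adjusted p of 0.1 for Slc25a20, 0.0588 for Eci2 and 0.0554 for Acadl. Cpt1a and Slc22a5 overlapped between the groups, and the count of 5 rises fell to 3 without control 2, control 5, C18:1 3 or C18:1 5.

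Peroxisomal oxidation did not follow as a group. Of 18 genes, Ech1, the dienoyl-CoA isomerase, rose (0.51 ± 0.13, limma adjusted p = 0.0367) and 0 fell, beside 0.691% and 0.33% of all genes. The median was -0.03. Ehhadh, the peroxisomal bifunctional enzyme, was at -0.33 with a 95% interval of -0.74 to 0.09. Outside the list, Hsdl2, a peroxisomal dehydrogenase, rose by 0.71 ± 0.18 (adjusted p = 0.0309). Pxmp4, a peroxisomal membrane protein, read 6.99, 6.50, 6.97, 7.16 and 6.47 in C18:1 livers, against 6.16, 6.04, 4.85, 5.91 and 5.94 in control livers (1.04 ± 0.22, adjusted p = 0.00904). Its groups did not overlap, and control 3 was far below the other controls.

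Of 22 established targets of PPARα, 6 rose and 0 fell at an adjusted p under 0.05 in livers that lack the receptor (0.691% of all genes rose), and 9 were higher and 0 lower at an unadjusted p under 0.01 (3.53% of all genes were higher). The 6 were Plin5, Acot1, Plin2, Slc25a20, Acadl and Creb3l3, the last a liver transcription factor of lipid metabolism (0.44 ± 0.09, adjusted p = 0.00316). The list median was 0.44, and 17 of the 22 were above zero. A median above zero was not particular to C18:1. Against the same controls in PPARα -/- liver, it was 0.60 after the docosahexaenoic acid triglyceride and 0.37 after fenofibrate. It was 0.25 after WY14643 and 0.15 after the eicosapentaenoic acid triglyceride. The 3 further ones at an unadjusted p under 0.01 were Angptl4, an inhibitor of lipoprotein lipase, at 0.75 (adjusted p = 0.063), Fabp2, a fatty acid-binding protein, at 0.52 (adjusted p = 0.0956), and Mgll, monoglyceride lipase, at 0.49 without overlap (adjusted p = 0.0985). Acot1, a cytosolic acyl-CoA thioesterase, read 9.57, 9.90, 9.56, 9.75 and 9.11 in C18:1 livers, against 8.21, 7.77, 8.60, 7.94 and 6.56 in control livers. The groups did not overlap, and the rise was 3.39-fold (1.76 ± 0.33, adjusted p = 0.00169). Acot1 lies in a family of near-identical genes, and whether its probeset also reads Acot2 was not tested; Acot2 itself was at 0.61 (adjusted p = 0.38). Fabp1 was at -0.00 and Vnn1 at -0.08, and Cyp4a14, the classical target, was dim in both groups.

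Lipid droplet coat genes rose. Plin5, which ties droplets to mitochondria in oxidative tissues, read 6.14, 5.95, 5.53, 6.19 and 6.34 in C18:1 livers, against 4.85, 3.24, 5.30, 3.15 and 4.58 in control livers. The groups did not overlap, control mice spread over more than 2 units, and with a dim control mean the rise was at least 2.49-fold (1.81 ± 0.40, limma adjusted p = 0.0106). Plin2, the main droplet coat of hepatocytes, read 11.49, 11.64, 11.73, 11.68 and 11.63 in C18:1 livers, against 11.03, 11.03, 10.92, 10.72 and 10.28 in control livers. It did not overlap either and rose 1.79-fold (0.84 ± 0.22, adjusted p = 0.0398).

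Hilpda, an inhibitor of adipose triglyceride lipase, was dim in both groups, at 3.59 to 4.66 in C18:1 livers and 3.01 to 3.46 in control livers (adjusted p = 0.0464), so no fold is given. Of 12 genes of lipid droplets and lipolysis, these 3 rose and 0 fell (0.691% of all genes rose), and the median was 0.33. Pnpla2, the lipase itself, was at 0.13 and Cidec, a droplet fusion protein, at 0.35. The count of 3 fell to 0 without control 2 or control 4 and to 1 without control 5, C18:1 1, C18:1 3 or C18:1 4. The highest adjusted p in these fits was 0.0682 for Plin5, 0.136 for Plin2 and 0.17 for Hilpda, and Plin2 passed only without control 3. The droplet list also had medians above zero after other treatments. Against the same controls in PPARα -/- liver, its median was 0.36 after the docosahexaenoic acid triglyceride and 0.25 after fenofibrate. It was 0.15 after WY14643 and 0.10 after the eicosapentaenoic acid triglyceride.

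Several rises lay outside these lists. Cgref1, a secreted calcium-binding protein, read 5.39, 6.02, 4.57, 5.42 and 4.31 in C18:1 livers, against 3.78, 3.42, 3.47, 2.72 and 2.22 in control livers. It did not overlap, was dim in control livers and was at least 1.65-fold higher after C18:1 (2.02 ± 0.42, adjusted p = 0.00575). Inhbc, the activin C subunit made mainly by hepatocytes, read 8.52, 8.32, 8.47, 8.53 and 8.67 in C18:1 livers, against 7.54, 7.43, 7.49, 7.94 and 7.48 in control livers. The groups stood clear of each other, with an SD of 0.12 in C18:1 livers and 0.21 in control livers (0.92 ± 0.16, adjusted p = 0.000324).

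Pgm3, an enzyme of the hexosamine pathway, rose by 0.92 ± 0.20 (adjusted p = 0.00904) at 7.87 to 8.60 in C18:1 livers and 7.11 to 7.79 in control livers. Slc25a33, a mitochondrial pyrimidine nucleotide carrier, rose by 0.97 ± 0.22 (adjusted p = 0.0134), with control 3 inside the range of the C18:1 mice. Ldha, lactate dehydrogenase, rose by 0.55 ± 0.12 (adjusted p = 0.0134). It was the one called gene of 26 in glycolysis, gluconeogenesis and fasting signals (0.691% of all genes rose). Suds3, a subunit of the Sin3 corepressor, rose by 0.48 ± 0.12 (adjusted p = 0.0268). The 2010003K11Rik transcript rose 2.92-fold (adjusted p = 0.0183) and 1810055G02Rik 1.73-fold (adjusted p = 0.0366), both free of overlap.

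Among the falls outside fatty acid synthesis, Slc12a7, a potassium-chloride cotransporter, read 6.51, 6.64, 5.62, 5.75 and 6.11 in C18:1 livers, against 7.44, 7.19, 6.66, 7.05 and 7.26 in control livers. It fell 1.99-fold without overlap, C18:1 2 and control 3 being close (-0.99 ± 0.20, adjusted p = 0.00324). Aspg, an asparaginase, read 8.12, 7.17, 7.78, 7.56 and 7.71 in C18:1 livers, against 8.78, 8.72, 7.76, 8.73 and 8.57 in control livers. Control 3 lay among the C18:1 mice and the other 4 controls above all of them (-0.85 ± 0.17, adjusted p = 0.00521).

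Cirbp, an RNA-binding protein induced by mild cold, read 4.69, 4.11, 3.59, 4.71 and 3.82 in C18:1 livers, against 6.00, 5.73, 5.48, 5.82 and 5.20 in control livers. It was dim in C18:1 livers and at least 2.17-fold lower there (-1.46 ± 0.34, adjusted p = 0.02). Hal, which starts histidine breakdown, fell by 0.67 ± 0.18 (adjusted p = 0.047). It was the one fall of 34 genes of amino acid breakdown and the urea cycle (0.33% of all genes fell). Gsta4, a glutathione transferase for lipid aldehydes, fell by 0.88 ± 0.22 (adjusted p = 0.035). Smaller falls without overlap were those of Ddhd2, a phospholipase (-0.49), Trak1, an adaptor that moves mitochondria (-0.50), Pm20d1 (-0.40), Adhfe1 (-0.40), Usp22 (-0.40) and Rmnd5a, a ubiquitin ligase subunit (-0.32, adjusted p = 0.00904).

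Across the other lists few genes passed. Of 33 respiratory chain genes none passed an adjusted p under 0.05 in limma's test or an unadjusted p under 0.01, and all lay between -0.18 and 0.13. Immediate early genes had a median of 0.64 over 19 genes, with 0 called and 2 higher at an unadjusted p under 0.01 (3.53% of all genes). Glucocorticoid-responsive genes had a median of 0.32 over 17 genes, with 0 called and 3 higher at that threshold, beside the same share of all genes. The largest value there was 2.47 for Zbtb16 (adjusted p = 0.0968), which lay at 8.21 to 8.54 in C18:1 livers and at 3.27 to 8.82 in control livers. Control 3 had the highest mean of the controls in both lists, at 0.66 for immediate early genes and 0.64 for glucocorticoid-responsive genes, set against the mean of the controls.

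The other pathway medians ran from -0.11 for glycolysis to 0.19 for heat shock genes, except where the lists above are concerned and for a list of 6 genes that holds Srebf1, Lpin2 and Txnip, of which Srebf1 alone was called (median 0.53). Marker medians were 0.17 for 13 endothelial genes, 0.09 for 15 stellate cell and fibroblast genes, 0.07 for 10 hepatocyte genes, 0.83 for 3 neutrophil genes, 0.61 for 3 lymphocyte genes and -0.73 for 2 bile duct genes, with 0 called in each.

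**Figure D2:**
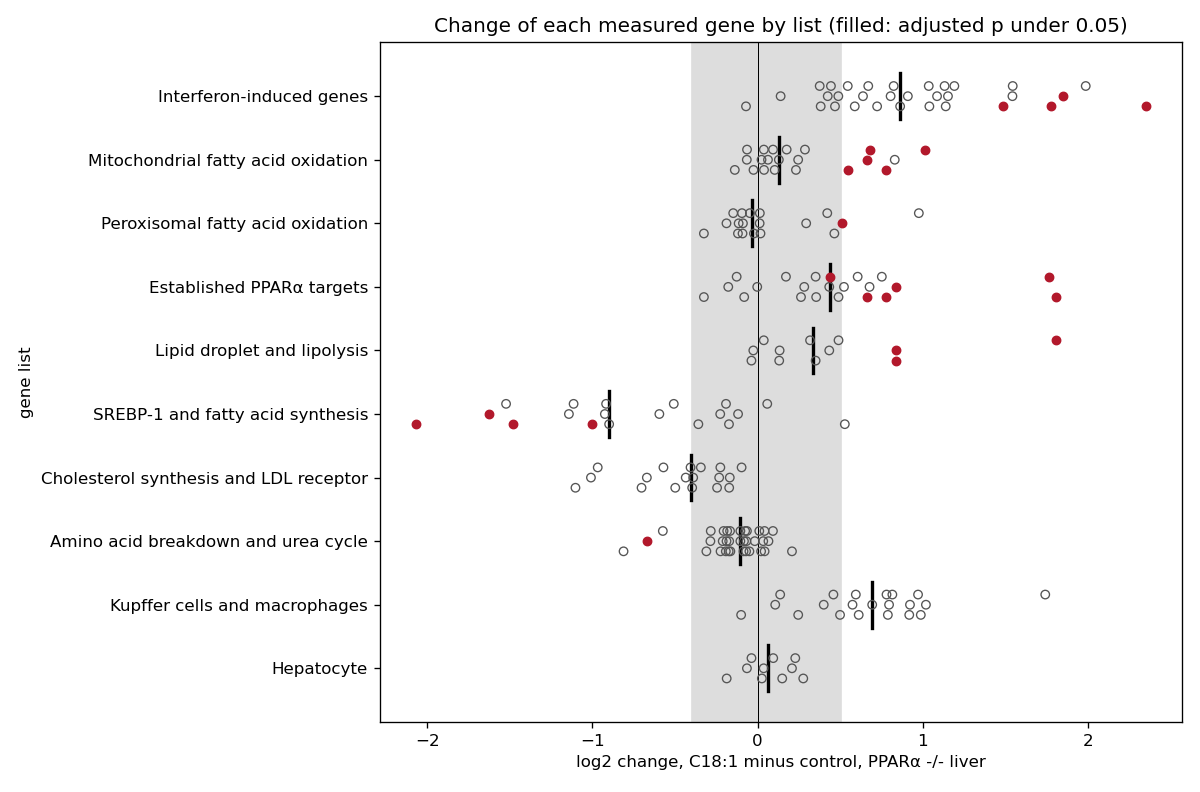
Change of each gene (C18:1 minus control in PPARα -/- liver, log2) by gene list; a point is a gene, the black tick the list median and the grey band the 5th to the 95th percentile of all 6661 genes, -0.40 to 0.50. Interferon-induced genes lie mostly to the right with a median of 0.86, and genes of SREBP-1 and fatty acid synthesis to the left with a median of -0.90.

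**Figure D3:**
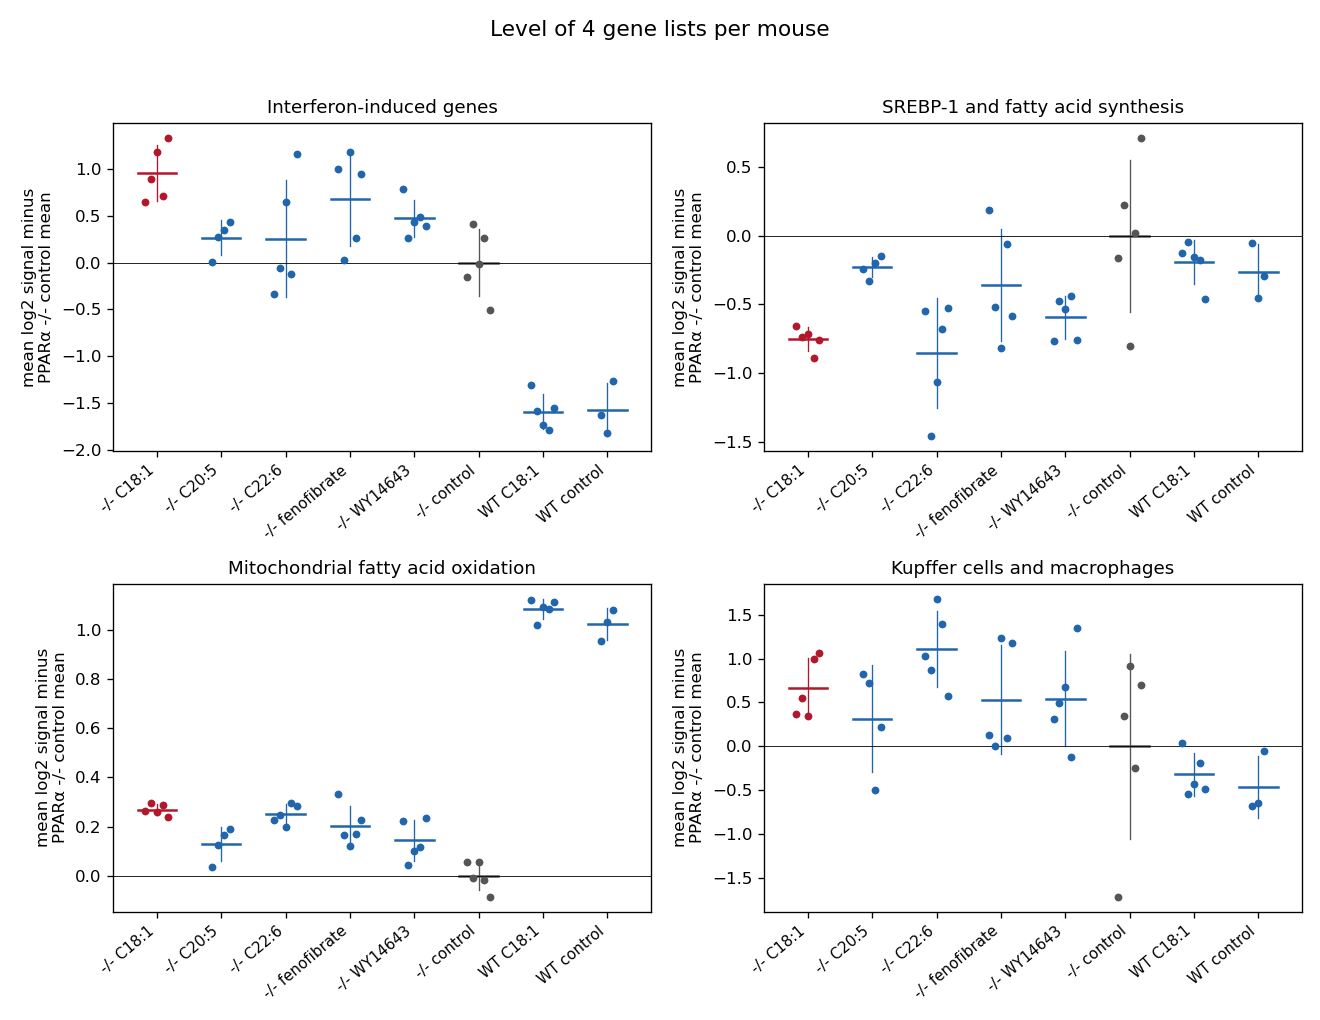
Mean of each list in each mouse (log2, minus the mean of the 5 PPARα -/- controls), with PPARα -/- C18:1 left of the other groups. The interferon mean lies at 0.64 to 1.33 in C18:1 livers and -0.51 to 0.41 in control livers, and the fatty acid synthesis mean of 1 control liver, -0.80, lies within the range of the C18:1 livers.

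The same bolus in WT mice, 5 C18:1 livers against 3 control livers, gave 0 of 11412 probesets at an adjusted p under 0.05 in limma's test, 273 at an unadjusted p under 0.01 (2.39%) and 911 at an unadjusted p under 0.05 (7.98%). The 46 genes that rose in PPARα -/- liver had WT changes of -0.26 to 0.91 with a median of 0.07, and the 22 that fell had WT changes of -1.41 to 0.09 with a median of -0.09. The difference of the 2 changes passed an adjusted p under 0.05 for 0 probesets, an unadjusted p under 0.01 for 195 (1.71%) and an unadjusted p under 0.05 for 897 (7.86%). So no single gene was shown to respond differently in the genotypes after adjustment, and with 3 WT controls the intervals are wide. The 68 genes were chosen on the PPARα -/- change, which also enters the difference, so their differences are given as sizes with 95% intervals.

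Srebf1 changed by -2.07 ± 0.37 in PPARα -/- liver and -0.51 ± 0.43 in WT liver, a difference of -1.56 (-2.70 to -0.42). Acss2 was at -1.63 in PPARα -/- liver and -0.35 in WT liver, and Mid1ip1 at -1.48 in PPARα -/- liver and 0.05 in WT liver. The list of fatty acid synthesis had a median of -0.90 in PPARα -/- liver and 0.04 in WT liver. Usp18 changed by 2.35 ± 0.53 in PPARα -/- liver and -0.12 ± 0.61 in WT liver, a difference of 2.47 (0.84 to 4.09). Usp18 was dim in both WT groups, at means of 2.47 in C18:1 and 2.59 in control livers, so its WT change is one between signals near the floor, and the size of the difference is uncertain. The interferon list had medians of 0.86 in PPARα -/- liver and 0.0061 in WT liver, and 13 of its 31 genes, all 4 called ones among them, were dim in both WT groups.

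Interferon genes also differed between the control livers of the genotypes. Usp18 was at least 4.32-fold higher in PPARα -/- than in WT controls (adjusted p = 1.65e-06), at 4.94 to 7.47 in PPARα -/- controls and a dim 1.55 to 3.58 in WT controls. The mean of the interferon list was -1.79 to -1.31 in WT C18:1 livers and -1.82 to -1.27 in WT control livers, below all PPARα -/- mice. With the receptor, the substrain differs between these groups as well, and the 2 cannot be told apart.

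Slc25a20 changed by 0.78 in PPARα -/- liver and -0.01 in WT liver, a difference of 0.79 (0.39 to 1.19; adjusted p = 0.332), which had the smallest unadjusted p of the genes named here. Its level in PPARα -/- controls was 2.57 below that of WT controls, so the C18:1 livers of PPARα -/- mice, at 7.93 to 8.73, stayed below the WT control livers, at 10.06 to 10.26. Eci2 was 2.25 and Acadl 1.39 lower in PPARα -/- than in WT controls, and Plin5, dim in PPARα -/- controls, was at least 22.5-fold lower there. The mean over mitochondrial oxidation genes was 0.24 to 0.30 in PPARα -/- C18:1 livers and -0.09 to 0.06 in PPARα -/- controls, and 1.02 to 1.12 in WT C18:1 livers and 0.96 to 1.08 in WT controls. The PPARα -/- change minus the WT change was 1.05 (0.39 to 1.71) for Plin2, 0.71 (0.33 to 1.09) for Ldha and 1.19 (0.58 to 1.79) for Pgm3. None of these passed after adjustment, and the genes were chosen on the PPARα -/- change.

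Cirbp and Hal had like values in both genotypes. Cirbp changed by -1.46 ± 0.34 in PPARα -/- liver and -1.41 ± 0.40 in WT liver (adjusted p = 0.198 in WT), with a difference of -0.05 (-1.10 to 1.00). It was dim after C18:1 in both, at means of 4.18 in PPARα -/- and 3.66 in WT livers, so both changes end near the floor. Hal changed by -0.67 in PPARα -/- liver and -0.62 in WT liver, with a difference of -0.05 (-0.60 to 0.49). Acot1 changed by 1.76 in PPARα -/- liver and 0.91 in WT liver, with a difference of 0.86 (-0.14 to 1.86). The intervals for Cirbp and Hal are wide enough to hold sizeable differences either way, and that for Acot1 holds zero.

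**Figure D4:**
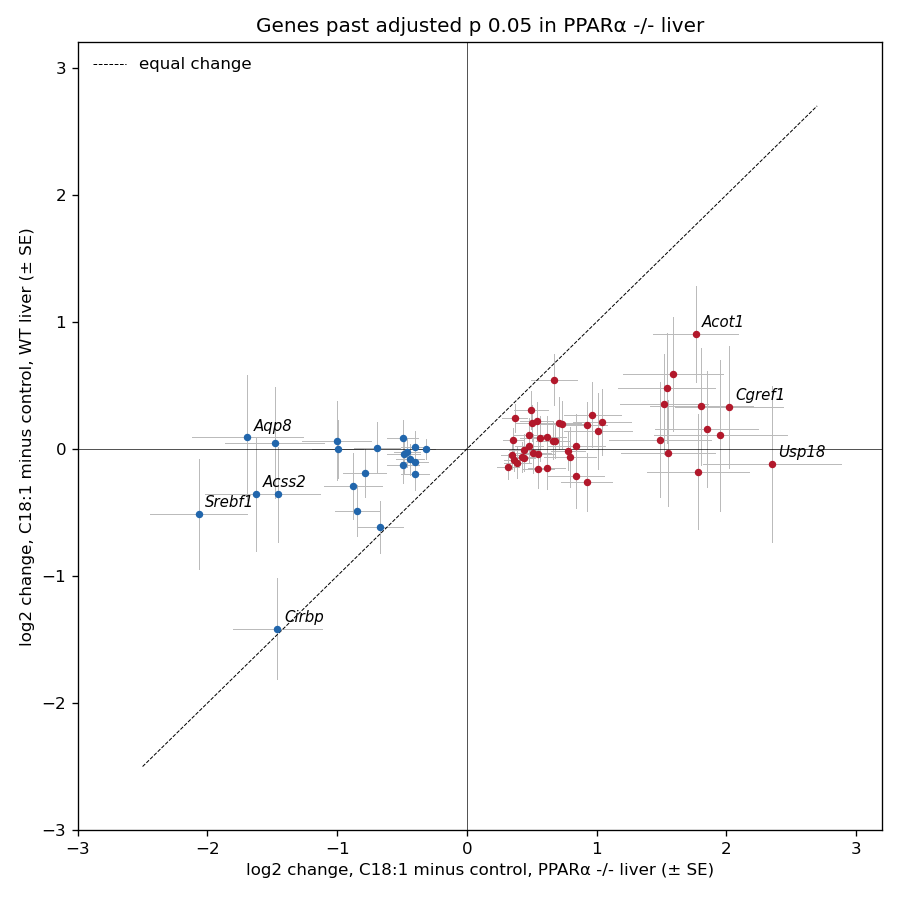
Change after C18:1 in PPARα -/- liver (horizontal) and in WT liver (vertical) of the 68 genes called in PPARα -/- liver, log2, with lines of 1 SE each way; the dashed line marks equal change. Most points lie near 0 on the vertical axis, with Cirbp, at -1.46 in PPARα -/- and -1.41 in WT liver, close to the dashed line.

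The C18:1 triglyceride was then set against the other 2 triglycerides of the first run in PPARα -/- mice, at the same volume and time. Oleic acid has a single double bond and a shorter chain, and eicosapentaenoic and docosahexaenoic acid have several double bonds and longer chains. Against C20:5, 17 of 11412 probesets differed at an adjusted p under 0.05 (0.149%), standing for 8 genes higher (0.12%) and 3 lower (0.045%) after C18:1. Against C22:6, 33 differed (0.289%), standing for 9 genes higher and 9 lower (0.135% each). These 2 pairs, with the pairs against both ligands, make 4 direct comparisons, each adjusted over all its probesets and not over the 4.

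Ifit2 was higher after C18:1 than after C20:5, at 5.06 to 6.30 in C18:1 livers and 3.30, 3.76, 3.40 and 3.44 in the 4 C20:5 livers. It was dim after C20:5 and at least 2.16-fold higher after C18:1 (2.06 ± 0.42, limma adjusted p = 0.0117). Cgref1, also dim after C20:5, was at least 1.65-fold higher (adjusted p = 0.0483), and Slc25a33 (0.99 ± 0.23, adjusted p = 0.0483) was higher as well. So were Parp16, which modifies stress proteins of the endoplasmic reticulum (1.54 ± 0.34, adjusted p = 0.0287), Ehd3, an endocytic protein of endothelial cells (1.03 ± 0.20, adjusted p = 0.00755), and Mylip, which degrades the LDL receptor (1.02 ± 0.23, adjusted p = 0.0368). Parp16 read 9.15 in control 3, inside the range of the C18:1 mice, and its C18:1 change against control was 0.82 (adjusted p = 0.201).

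Aspg was lower after C18:1 than after C20:5, at 7.17 to 8.12 in C18:1 livers and 8.45, 8.81, 8.49 and 8.64 in C20:5 livers (-0.93 ± 0.18, adjusted p = 0.00755). Ethe1, a mitochondrial sulfur dioxygenase (-1.26 ± 0.28, adjusted p = 0.0274), and the transcript Hectd2os (-1.89 ± 0.36, adjusted p = 0.00755) were lower too. The count of 17 probesets was 3 to 14 when 1 mouse of either group was left out, with 3 without C20:5 3, 6 without C20:5 2 or C18:1 3, 8 without C20:5 1 or C18:1 1 and 10 without C18:1 5. For genes that moved against control, the differences from C20:5 were -0.70 for Srebf1 (95% interval -1.49 to 0.09), -1.40 for Acss2 (-2.22 to -0.57, adjusted p = 0.161), 1.83 for Usp18 (0.70 to 2.96, adjusted p = 0.185), 0.76 for Plin5 (-0.08 to 1.60) and 0.12 for Slc25a20 (-0.16 to 0.39). None passed, which does not show that the 2 oils act alike on them.

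Against C22:6 the genes that differed were other ones, in the fit that took the spread from the arrays of all groups. With only the C18:1 and C22:6 arrays in the fit, 0 probesets passed an adjusted p under 0.05. The calls that follow therefore rest on the spread of the other groups as well. Krt8, a keratin of hepatocytes and bile ducts that is known to rise with liver injury, was lower after C18:1, at 8.81 to 9.42 in C18:1 livers and 9.46, 9.88, 10.74, 9.48 and 11.43 in C22:6 livers (-1.06 ± 0.20, limma adjusted p = 0.00475). The groups did not overlap, and 2 C22:6 livers stood above 10. Fst, the activin antagonist follistatin, Tubb6, a tubulin, and Tagln2 were dim in C18:1 livers and at least 1.30-fold (adjusted p = 0.00873), 1.15-fold (adjusted p = 0.0118) and 1.10-fold (adjusted p = 0.045) lower there. Ppl, periplakin, was lower too (adjusted p = 0.013) but dim in both groups, so no fold is given. Slc25a22, the mitochondrial glutamate carrier, was lower by -0.89 (adjusted p = 0.0286). Suds3 was higher after C18:1, at 7.81 to 8.39 in C18:1 livers and 7.13 to 7.62 in C22:6 livers (0.59 ± 0.12, adjusted p = 0.00613), with smaller differences for Naa60 (0.56), Lsm12 (0.55), Scamp1 (0.49), Tmem179b (0.48) and Bod1 (0.44).

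The count of 33 ran from 6 without C22:6 2 to 222 without C22:6 4, and was 118 without C22:6 1, 115 without C22:6 5, 18 without C22:6 3, 13 without C18:1 1, 17 without C18:1 2 or C18:1 5 and 21 without C18:1 3. C22:6 arrays also correlated less well with each other, at 0.920 to 0.972, and against the same controls C18:1 changed 97 probesets, C22:6 1547 (13.6%) and C20:5 6 (0.0526%). These counts share the controls. Differences between C18:1 and C22:6 were small for the main genes of the bolus, at 0.26 for Srebf1 (-0.48 to 1.01), 0.09 for Acss2 (-0.69 to 0.87), -0.05 for Slc25a20 (-0.31 to 0.21), -0.02 for Eci2 (-0.24 to 0.21), 0.01 for Acadl (-0.24 to 0.27) and -0.05 for Plin2 (-0.48 to 0.39). For the oxidation genes and Plin2 these intervals leave out a difference of 0.50 either way. Usp18 differed by 1.44 (0.38 to 2.50, adjusted p = 0.234).

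Fenofibrate and WY14643 were given at another dose and in the vehicle, not as oil, so their values stand beside those of C18:1 without matching them. C18:1 and fenofibrate differed in 1 probeset at an adjusted p under 0.05 (0.00876%) and 356 at an unadjusted p under 0.01 (3.12%). The gene was Plin5, at 5.53 to 6.34 in C18:1 livers and 4.03, 3.06, 3.92, 4.21 and 4.62 in fenofibrate livers. With a dim fenofibrate mean it was at least 2.97-fold higher after C18:1 (2.06 ± 0.40, limma adjusted p = 0.0225). All C18:1 livers lay above all fenofibrate livers, and the fenofibrate livers overlapped the controls. The count was 0 without fenofibrate 1, C18:1 1, C18:1 4 or C18:1 5, 2 without fenofibrate 5, 14 without fenofibrate 3, 20 without C18:1 2 and 48 without fenofibrate 2. C18:1 and WY14643 differed in 0 probesets at an adjusted p under 0.05, 128 at an unadjusted p under 0.01 (1.12%) and 541 at an unadjusted p under 0.05 (4.74%). This comparison was added after the data were seen.

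Set in order by median, Usp18 was highest after C18:1 (8.30 to 9.40, median 8.71), then WY14643 (6.78 to 8.58, 7.69), C22:6 (5.52 to 9.06, 7.67), fenofibrate (6.68 to 8.84, 7.60), C20:5 (6.10 to 7.98, 7.06) and control (4.94 to 7.47, 6.58). The 4 groups between overlapped each other and the controls, and all but C20:5 overlapped C18:1. Srebf1 was lowest after C18:1 (5.08 to 6.66, 6.02) and C22:6 (4.63 to 6.36, 6.22), then C20:5 (6.37 to 7.02, 6.68), WY14643 (6.12 to 7.70, 6.88), fenofibrate (6.66 to 8.18, 7.80) and control (7.16 to 8.42, 8.18). Slc25a20 had medians of 8.42 after C22:6, 8.35 after C18:1, 8.27 after fenofibrate, 8.23 after C20:5, 7.96 after WY14643 and 7.70 in controls. WY14643, at 7.94 to 8.17, was free of overlap with the controls at 6.94 to 7.88, as were C18:1, C20:5 and C22:6, and fenofibrate was not.

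**Figure D5:**
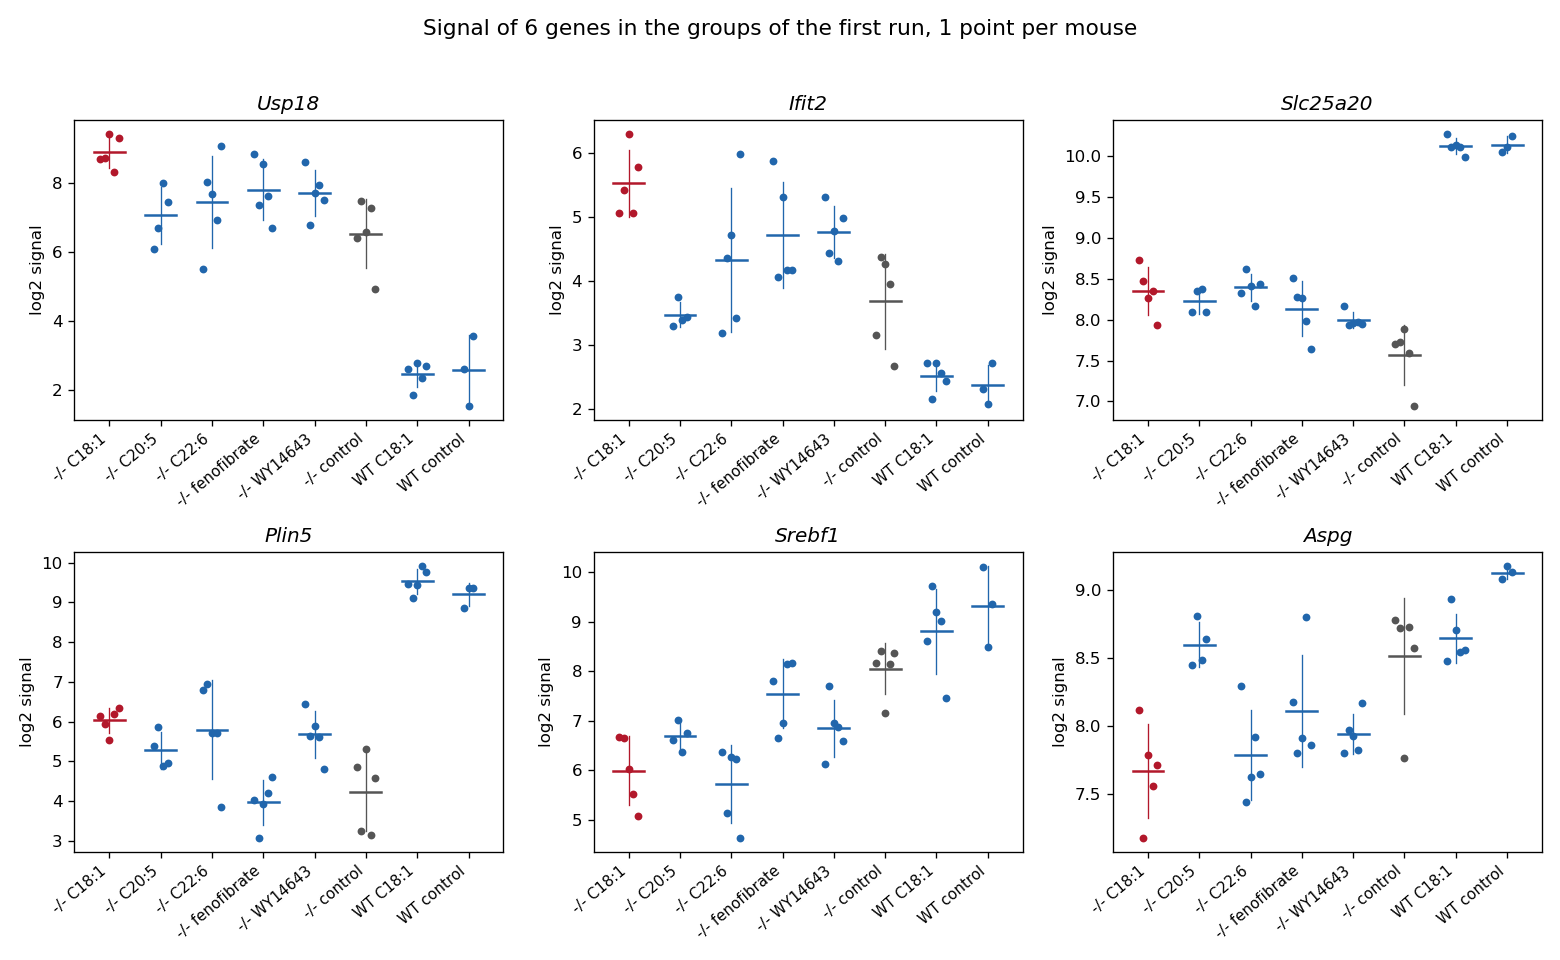
Log2 signal of 6 genes in each mouse of 8 groups, C18:1 first and controls after the other PPARα -/- groups, with both WT groups at the right. Usp18 lies at 8.30 to 9.40 in PPARα -/- C18:1 livers and at 1.86 to 2.80 in WT C18:1 livers, and Slc25a20 of every PPARα -/- group lies below both WT groups.

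The remaining genes named in the study did not pass an adjusted p under 0.05 after C18:1 in PPARα -/- liver. Lpin2, a phosphatidate phosphatase, came closest at 0.78 ± 0.21 (adjusted p = 0.0518), with control 3, at 10.38, inside the range of the C18:1 mice, 10.07 to 10.69, and 0.54 in WT liver. Pdk4, the kinase that shuts off pyruvate dehydrogenase, was at -0.13 (95% interval -1.31 to 1.06) in PPARα -/- and 1.43 in WT liver, and Cd36, a fatty acid translocase, at -0.18 (-0.74 to 0.39) in PPARα -/- and 0.34 in WT liver. Fabp4 was at 0.35, Txnip at 0.28, Nr1i3 at 0.17, Rxra at -0.14, Ahr at 0.33 and Ppara at -0.09 (-0.41 to 0.24). Cpt1b and Prlr were not analysed here, since no probeset in the table stands for either gene alone.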

How the data were processed

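RNA of individual livers was hybridised to Affymetrix arrays. The authors deposited a table of probeset intensity values on the linear scale, summarised per probeset by GC-RMA in its empirical Bayes form (the submitters' processing notes name GCRMA 2.20) after quartile normalization, as their methods word it, and had removed probesets of low inter-quartile range (IQR). Of 11463 probesets, 51 array controls were left out. Gene symbols came from the platform annotation: 10279 probesets carry 1, 406 several and 727 none. Each gene is represented by its probeset of highest mean signal. The arrays fall into a first run of 56 and a later run of 37, with array medians of 135 to 145 and 154 to 167, and only controls of the first run were used. The number of mice limits the precision.

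Log2 signals were fitted with limma 3.58.1 in R 4.3.3, with 1 mean per group over the 83 arrays of all groups but C10:0 (18 groups, 65 residual degrees of freedom), lmFit and eBayes without a trend, and Benjamini-Hochberg adjustment over 11412 probesets. The main threshold was an adjusted p under 0.05, and the study's methods use an unadjusted p under 0.01. The fit was tested on simulated data with known changes. Those data had the same spread in every group, so groups of unequal spread were not tested. No label pairs mice by replicate number, and the numbers were not taken as pairs. Named were the 15 largest rises and 15 largest falls past the threshold without overlap, up to 4 genes per list, the 6 largest each way per direct comparison, and genes the study names. The members, gene lists and rules were chosen with earlier results of these data known. Alternatives were other filters, sample sets, weights, scalings, a fold limit, the replicate block and leaving out each mouse. Promoters came from RefSeq (GRCm38.p6).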

Additional observations from a re-analysis of the deposited data

Results flagged for a closer look

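In groups of 4 to 5 mice, a value was listed where the gap between the highest or lowest mouse and its nearest neighbour took up more of the group's range than Dixon's limit allows (0.71 for 5 mice). Chance alone lists about 1 in 20 groups. Of 136 groups checked, 13 were listed, and 6 of the 13 were values of control 3.

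Control 3 read 4.85 for Pxmp4, with the other controls at 5.91 to 6.16, 7.16 for Srebf1 (8.15 to 8.42), 7.43 for Gsta4 (7.85 to 7.93) and 7.76 for Aspg (8.57 to 8.78). It read 9.15 for Parp16 (7.31 to 7.71) and 8.86 for Txnip (7.76 to 7.99), both above the other controls. For Srebf1, Gsta4, Aspg, Parp16 and Txnip the value of control 3 lay on the side of the C18:1 mice, and for Pxmp4 on the far side. The cause was not tested.

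The other listed values were single ones. Control 4 read 7.94 for Inhbc, with the other controls at 7.43 to 7.54. Control 1 read 3.46 for Hilpda (3.01 to 3.06) and 2.26 for Cyp4a14 (1.86 to 1.94), both dim. Control 5 read 7.79 for Naa60 (8.09 to 8.21). C18:1 1 read 8.49 for Adhfe1, with the other C18:1 mice at 8.83 to 8.95, C18:1 2 read 10.33 for Ppara (9.92 to 9.98), and C18:1 3 read 7.0 for Tmem179b (7.30 to 7.39).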

How the results depend on the processing

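The count of 97 probesets changed by C18:1 stayed within 1.5 times under IQR limits of 0.25 and 0.5, a log2 signal limit of 5, all 93 arrays, an intensity trend and median centring. It was 35 with only the 10 arrays (14 of the 97 shared), 151 with the 56 arrays of the first run, 770 with array weights (control 3 weighed 0.498), 193 with quantile normalization and 64 with a fold of at least 1.5. The count of 636 at an unadjusted p under 0.01 was 398 with an IQR of 0.5, 1213 with weights and 312 with the fold limit. The genotype difference went from 0 to 4 and the WY14643 difference from 0 to 59 with weights. The C20:5 count of 17 was 51 with only its arrays, 26 with 56 arrays, 129 with weights and 28 with quantile normalization. The C22:6 count of 33 was 15 with an IQR of 0.5, 20 with the signal limit, 0 with only its arrays, 14 with 56 arrays, 12 with weights and 57 with quantile normalization. The fenofibrate count of 1 was 16, 0, 2, 2, 5, 2 and 12 with an IQR of 0.5, only its arrays, 93 arrays, a trend, weights, median centring and quantile normalization. The cause of these shifts was not tested.

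Leaving out 1 mouse at a time gave 27 to 299 for C18:1 against control (453 to 846 at an unadjusted p under 0.01, the lowest without C18:1 3 and the highest without control 3), 0 to 0 for the genotype difference, 3 to 14 for C20:5, 6 to 222 for C22:6, 0 to 48 for fenofibrate and 0 to 1 for WY14643, the 1 being without C18:1 5. Of the genes named, 3 changed sign, all far from the threshold: Cyp4a14 was -0.023 with quantile normalization and -0.019 to 0.27 with 1 mouse left out (below zero without C18:1 1), Ppara -0.21 to 0.028 (above zero without control 1) and Pdk4 -0.24 to 0.064 (above zero without control 3 and, at 0.028, without C18:1 1).

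Same-numbered mice deviated together at correlations of 0.19, 0.20, 0.07, 0.02 and 0.39, all above zero. C18:1 2, C18:1 3 and C18:1 4 correlated best with another number (0.22, 0.08 and 0.22). The numbers were not taken as pairs, and whether mice of the same number share anything else was not tested. With the replicate block and only the arrays of each contrast, 57 probesets passed for C18:1 against control, beside 35 without the block. At an unadjusted p under 0.01 the counts were 801 with the block and 648 without it. For C20:5, C22:6 and fenofibrate, 0 each passed with the block. Among the genes kept whichever mouse was left out, the block ended the calls of Srebf1 (adjusted p = 0.0531), Slc25a20 (0.0524), Acadl (0.0531), Pxmp4 (0.109) and Aspg (0.123). With only the 10 arrays and no block Srebf1 stayed at 0.045 and Inhbc at 0.0162, and calls lost included Usp18, Cgref1 and Acot1 at 0.0554 each and Plin5 at 0.0809.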
